A study of Mus musculus with 36 samples.

Results

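Described here are 7 genes of Nodal and left-right signalling, of 30869 gene symbols on the array: the ligands Nodal, Gdf1 and Gdf3, the co-receptor Tdgf1, and the extracellular inhibitors Lefty1, Lefty2 and Cer1. They were chosen by name, and every probe of the array whose gene symbol was on that list was taken. This gave 9 of 45281 probes, with 2 each for Nodal and Cer1 and 1 for each of the other genes. Of these 9 probes, 8 were among the 21712 probes that were tested, because the probe of Tdgf1 was detected on 0 of 36 arrays.

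Nodal is a secreted TGF-beta ligand that signals through activin receptors and an EGF-CFC co-receptor to SMAD2 and SMAD3, which act with FOXH1 in the nucleus. Gdf1 and Gdf3 are related ligands, and Gdf1 is known to act together with Nodal. In the early mouse embryo the pathway patterns the anterior-posterior axis and the primitive streak, is active around the node, and later sets the left side of the lateral plate, while Lefty1, Lefty2, Cer1 and Dand5 restrain it.

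Gene expression was measured in wild-type MF1 mouse embryos, an outbred strain, along the axis from the late primitive streak to the tail bud. Each array held biotin-labelled amplified total RNA from a pool of 6 to 74 microdissected pieces of the same region. At E7.5 (headfold stage) the groups were the anterior region (A, n = 3), the posterior region (P, n = 2) and the proximal posterior region (PP, n = 2). At E8.5 (2-5 somites) they were the rostral node (RN, n = 2), the node-streak border (NSB, n = 3), the caudal lateral epiblast (CLE, n = 3), the anterior primitive streak (St1, n = 2) and the posterior primitive streak (St5, n = 2). From the tail bud came the chordoneural hinge (CNH) at E9.5 (n = 2), E10.5 (n = 2), E11.5 (n = 3), E12.5 (n = 2) and E13.5 (n = 2), and the region posterior to it (P-CNH) at E9.5, E10.5 and E11.5 (n = 2 each). The pieces were not sorted, so that a pool mixed the cell types of its region, and no group separates left from right. The number of detected probes ran from 10814 on E13.5 CNH replicate 2 to 16256 on E8.5 St1 replicate 2, and the 36 arrays fell into 3 batches of 12.

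Levels are given as log2 of the normalised intensity of a probe, and differences as log2 differences adjusted for batch. A probe was detected on an array where its detection p-value was under 0.01. The lowest level detected on an array ran from 5.55 on E8.5 St1 replicate 2 to 7.19 on E13.5 CNH replicate 2. A level detected on an array can therefore be undetected on another, and a difference in detection alone shows no difference in level. A difference counted as called if its adjusted p did not exceed 0.05 and its change reached 1.5-fold, and counts of genes as higher or lower are counts of called genes. Where a probe was undetected on some or all arrays of the dimmer group, the fold of a called change is printed as a lower bound ("at least"), and log2 differences of such probes are fitted values that are no bound. To make the bound, every value in the dimmer group that lay under the lowest intensity detected on its array was raised to that intensity, and no fold is given where the result was under 1. The bound is a difference of plain region means, without the batch term. It allows for undetected values only and not for the spread between arrays, so that it is no limit of a confidence interval. The p-values measure the spread between pools and arrays, not between single embryos, and in such pools fewer cells of a type and less RNA per cell cannot be told apart. Levels of different probes are not compared, because probes differ in how brightly they bind.

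Marker genes describe the cell types that the pools held. The node and notochord list (Noto, Foxa2, Shh, Chrd, Nog and Foxj1) had 6 of 6 genes detected on each array of RN and NSB, and also of P and E12.5 CNH. The primitive streak list (T, Fgf8, Wnt3a, Evx1 and Mixl1) had 5 of 5 detected on each array of P, PP, NSB, St1 and St5, and also of E9.5 and E10.5 CNH and of P-CNH. The posterior streak list (Bmp4, Tbx4, Isl1 and Hand1) had 4 of 4 detected on both St5 arrays. Of the anterior neurectoderm list (Otx2, Six3, Hesx1, Pou3f1 and Sox2), Otx2 and Pou3f1 were detected on 3 of 3 A arrays, whereas Six3 and Hesx1 were each detected on 1 of 3. Noto, Foxa2, Foxj1, Mixl1 and Sox17 are in a marker list and in a pathway list, and Hand1 is in the posterior streak and lateral plate lists.

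**Figure D1:**
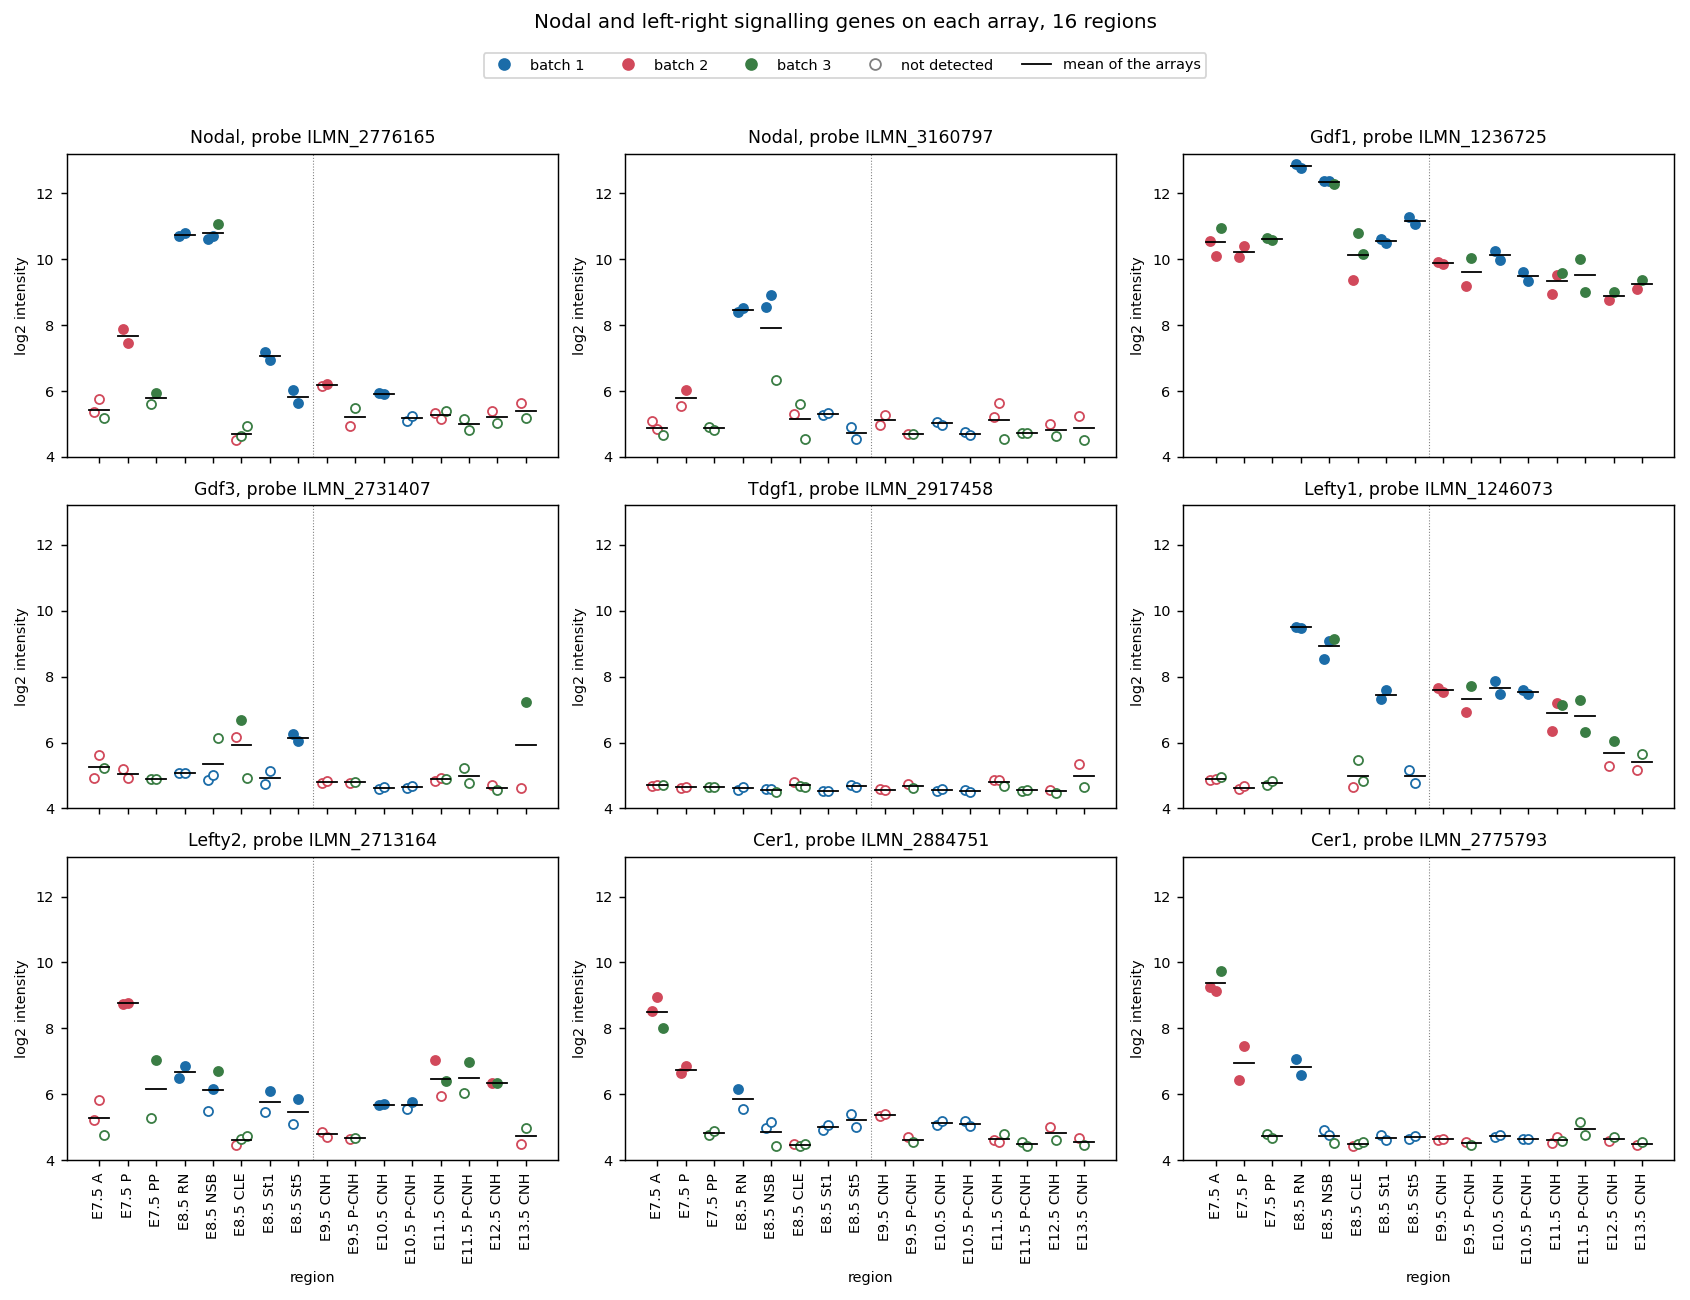
Log2 intensity (y axis) of each of the 9 probes on each of the 36 arrays, by region (x axis), coloured by batch. Open circles mark arrays on which the probe was not detected, bars mark the mean of a region and the dotted line parts E8.5 from E9.5. The probe ILMN_2776165 of Nodal lay between 10.60 and 11.06 on the RN and NSB arrays and at 7.88 or less on the other arrays.

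Nodal, the ligand after which the pathway is named, was brightest around the node. The main Nodal probe (ILMN_2776165, the one with the higher mean level) was detected on 15 of 36 arrays. It read 10.70 and 10.80 on the RN arrays and 10.60, 10.72 and 11.06 on the NSB arrays. P followed with 7.88 and 7.46, and St1 with 7.19 and 6.93. These 4 regions, together with St5 at 6.02 and 5.64 and E10.5 CNH at 5.93 and 5.91, were the regions with Nodal detected on each array. RN and NSB overlapped each other and lay above all other regions.

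Elsewhere Nodal was near or under the limit of detection. It was detected on 1 of 2 PP arrays (5.62 and 5.95) and on 1 of 2 E9.5 CNH arrays (6.16 and 6.22). The lowest detected level was 6.21 and 6.20 on these E9.5 CNH arrays, but 5.71 and 5.62 on the St5 arrays. E9.5 CNH was thus brighter than St5 though detected on fewer arrays. Nodal was detected on 0 of 3 A arrays (5.36, 5.75 and 5.19) and 0 of 3 CLE arrays (4.50, 4.62 and 4.95). The lowest detected level on the CLE arrays was 7.10, 6.65 and 5.88. Nodal was also undetected on each array of P-CNH and of E11.5, E12.5 and E13.5 CNH, where it lay between 4.82 and 5.62. By mean level the order of regions was NSB (10.79), RN (10.75), P (7.67), St1 (7.06), E9.5 CNH (6.19), E10.5 CNH (5.92), St5 (5.83), PP (5.78) and A (5.43), followed by E13.5 CNH, E11.5 CNH, E9.5 P-CNH, E12.5 CNH, E10.5 P-CNH, E11.5 P-CNH and CLE (4.69). NSB and RN overlapped, RN, P, St1 and E9.5 CNH were each clear of the next region, and from E10.5 CNH downward each region overlapped the next, so that 11 of 15 neighbouring pairs overlapped.

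A dimmer Nodal probe (ILMN_3160797) was detected on 5 of 36 arrays, all of which also detected the main probe. It read 8.38 and 8.52 in RN and 8.56 and 8.90 on NSB replicates 1 and 2, but 6.32 without detection on NSB replicate 3, the NSB array of batch 3. The remaining array with detection was P replicate 2 (6.02, against 5.56 on P replicate 1). RN and NSB were again the brightest regions on average (8.45 and 7.93). Across the 16 regions the plain means of both probes correlated with r = 0.960, but their batch-adjusted means did so with r = 0.422 and rho = 0.162.

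The sequence before the start of Nodal is shown because Nodal, Gdf1 and Lefty1 were brightest in the same regions. RefSeq promoter windows (build GRCm38.p6, 250 bases before the start) were matched for 4 of the 7 genes, and both strands were searched for the letters of 5 motifs: AATNCACA (FOXH1), CAGAC (SMAD), CACACCT (T-box), TGTTTAC (forkhead) and TAATCC (OTX). Of 32817 distinct windows, these were held by 3.18%, 42.2%, 5.1%, 3.16% and 6.25%. The Nodal window (chr10:61417722-61417971, + strand) held the T-box letters, in capitals, from 17 to 11 bases before the start.
Nodal: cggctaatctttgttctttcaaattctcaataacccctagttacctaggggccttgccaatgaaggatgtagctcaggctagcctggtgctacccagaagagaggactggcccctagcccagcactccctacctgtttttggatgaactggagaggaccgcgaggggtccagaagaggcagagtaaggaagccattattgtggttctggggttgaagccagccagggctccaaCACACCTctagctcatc

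Gdf1, a ligand that acts with Nodal, was detected on 36 of 36 arrays (ILMN_1236725). Its levels were 12.89 and 12.77 in RN and 12.36, 12.39 and 12.28 in NSB. St5 came next with 11.29 and 11.05. The RN arrays lay above the NSB arrays, and both regions lay above all other arrays. Within E7.5, Gdf1 read 10.56, 10.11 and 10.93 in A, 10.07 and 10.39 in P, and 10.64 and 10.59 in PP. St1 read 10.62 on replicate 1, with a mean of 10.56, and CLE read 9.38, 10.79 and 10.17. A and PP overlapped with St1, and the 3 regions of E7.5 overlapped with CLE.

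In the tail bud Gdf1 was dimmer, with 9.92 and 9.85 in E9.5 CNH, 10.26 and 9.97 in E10.5 CNH, and 8.94, 9.52 and 9.57 in E11.5 CNH. It read 8.75 and 9.02 in E12.5 CNH and 9.11 and 9.36 in E13.5 CNH. In P-CNH it read 9.20 and 10.04 at E9.5, 9.62 and 9.34 at E10.5, and 10.01 and 9.01 at E11.5. The order by mean was RN (12.83), NSB (12.34), St5 (11.17), PP (10.62), St1 (10.56), A (10.53), P (10.23), E10.5 CNH (10.12) and CLE (10.12), then E9.5 CNH, E9.5 P-CNH, E11.5 P-CNH, E10.5 P-CNH, E11.5 CNH, E13.5 CNH and E12.5 CNH (8.89). Only RN, NSB, St5 and E13.5 CNH were clear of the next region, and the other 11 of 15 neighbouring pairs overlapped.

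The Gdf1 window is shown for comparison with that of Nodal, the member it resembled most across regions by r with the main Nodal probe. The window of Gdf1 farther upstream (chr8:70315525-70315774, + strand) held the SMAD letters from 134 to 130 bases before the start and their reverse complement from 185 to 181, both in capitals. It is also the window of Cers1, a ceramide synthase gene that shares a transcript with Gdf1. The other matched Gdf1 window (chr8:70329515-70329764, + strand, not shown) held the reverse complement of the SMAD letters from 91 to 87 bases before the start. The probe of Cers1, named Lass1 on the array, was detected on 0 of 36 arrays (4.44 to 4.95). Whether the Gdf1 probe also reports the shared transcript was not tested, so that its levels may not be those of Gdf1 alone.
Gdf1: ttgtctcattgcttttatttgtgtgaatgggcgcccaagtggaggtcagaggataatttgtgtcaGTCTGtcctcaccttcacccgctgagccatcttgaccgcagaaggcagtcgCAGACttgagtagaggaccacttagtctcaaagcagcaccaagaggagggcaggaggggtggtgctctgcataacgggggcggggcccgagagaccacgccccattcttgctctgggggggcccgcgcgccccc

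Gdf3, a related ligand, was detected on 4 of 36 arrays (ILMN_2731407). These were both St5 arrays (6.26 and 6.05), CLE replicate 2 (6.69) and E13.5 CNH replicate 2 (7.24). CLE replicate 2 and E13.5 CNH replicate 2 were among the 4 arrays with the fewest detected probes, with 12289 and 10814. The other arrays of those regions were undetected, at 6.17 and 4.92 in CLE and 4.62 in E13.5 CNH. St5 was the region with Gdf3 detected on each of its arrays, and 13 of 15 neighbouring pairs in the order of regions overlapped.

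Tdgf1, which encodes the EGF-CFC co-receptor Cripto, was not detected on any of the 36 arrays (ILMN_2917458). Its levels ran from 4.48 on E12.5 CNH replicate 2 to 5.36 on E13.5 CNH replicate 1, and its lowest detection p-value was 0.0727. Its highest deposited intensity was 146, and 15 of 15 neighbouring regions overlapped. The values show that this probe gave no signal above background in any region, and a fold change was not computed.

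Lefty1, a secreted inhibitor of Nodal known from the midline and floor plate, was detected on 21 of 36 arrays (ILMN_1246073). It read 9.51 and 9.49 in RN and 8.54, 9.07 and 9.14 in NSB. St1 followed at E8.5 with 7.31 and 7.59, whereas St5 (5.18 and 4.78) and CLE (4.65, 5.46 and 4.85) were undetected on each array. RN, NSB and St1 did not overlap with each other, nor with CLE or St5. At E7.5, Lefty1 was undetected on 7 of 7 arrays, between 4.59 and 4.96.

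In the tail bud Lefty1 was detected from E9.5 to E11.5, in CNH and in P-CNH alike. CNH read 7.67 and 7.53 at E9.5, 7.88 and 7.46 at E10.5, and 6.37, 7.19 and 7.13 at E11.5. P-CNH read 6.92 and 7.73 at E9.5, 7.58 and 7.48 at E10.5, and 7.29 and 6.33 at E11.5. CNH and P-CNH overlapped at E9.5, E10.5 and E11.5. Lefty1 was then detected on 1 of 2 E12.5 CNH arrays (5.28 and 6.06) and 0 of 2 E13.5 CNH arrays (5.17 and 5.66). The order by mean was RN (9.5), NSB (8.92), E10.5 CNH (7.67), E9.5 CNH (7.60), E10.5 P-CNH (7.53), St1 (7.45), E9.5 P-CNH (7.33), E11.5 CNH (6.90), E11.5 P-CNH (6.81) and E12.5 CNH (5.67), then E13.5 CNH, CLE, St5, A, PP and P (4.63). The 7 regions from E10.5 CNH to E11.5 P-CNH overlapped in sequence, and in all 10 of 15 neighbouring pairs did.

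Lefty2, an inhibitor known from nascent mesoderm and the left lateral plate, was detected on 17 of 36 arrays (ILMN_2713164). It was brightest in P, with 8.73 and 8.77. PP read 5.28 without detection on replicate 1 and 7.03 on replicate 2. RN read 6.48 and 6.87, and NSB read 5.48 (undetected), 6.15 and 6.70. P was clear of all other regions, and RN, NSB and PP overlapped. A was undetected on 3 of 3 arrays (5.22, 5.81 and 4.76), as was CLE (4.45, 4.63 and 4.73).

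Lefty2 in the tail bud did not follow Lefty1. It was undetected on each E9.5 array, where it lay between 4.64 and 4.84. Lefty2 read 5.67 and 5.70 in E10.5 CNH, 7.03, 5.94 (undetected) and 6.41 in E11.5 CNH, 6.03 (undetected) and 6.98 in E11.5 P-CNH, and 6.34 and 6.32 in E12.5 CNH. The lowest detected level on the E9.5 arrays was 5.80 to 6.21, above both E10.5 CNH levels. Both E13.5 CNH arrays were again undetected (4.47 and 4.97). By mean, P (8.75) was followed by RN (6.68), E11.5 P-CNH (6.50), E11.5 CNH (6.46), E12.5 CNH (6.33), PP (6.15) and NSB (6.11), with CLE (4.60) last, and 14 of 15 neighbouring pairs overlapped.

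Cer1, which encodes the secreted Nodal, BMP and Wnt inhibitor Cerberus and is known from the anterior visceral and definitive endoderm, was brightest in A. The probe with the higher mean level (ILMN_2884751) read 8.54, 8.94 and 8.01 in A and 6.63 and 6.85 in P. It was detected on 6 of 36 arrays, the remaining one being RN replicate 1 (6.15, against 5.55 on RN replicate 2). A lay above P and P above RN, with no overlap. The other Cer1 probe (ILMN_2775793) was detected on the same 6 arrays and on RN replicate 2. It read 9.25, 9.13 and 9.73 in A, 6.43 and 7.46 in P, and 7.06 and 6.58 in RN. With this probe A was again clear of the other regions, whereas P and RN overlapped. In PP, NSB, CLE, St1, St5 and the tail bud both probes were undetected on each array. Neighbouring regions overlapped in 12 and 13 of 15 pairs, and the plain region means of both probes correlated with r = 0.954.

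The Cer1 window is shown because its regions differed from those of Nodal and Lefty1. It lies at chr4:82885152-82885401 on the - strand and held the SMAD letters, in capitals, from 213 to 209 bases before the start. The matched Tdgf1 window, which is not shown, held the SMAD letters from 113 to 109 bases before the start. A match of letters describes the sequence and was not tested for binding.
Cer1: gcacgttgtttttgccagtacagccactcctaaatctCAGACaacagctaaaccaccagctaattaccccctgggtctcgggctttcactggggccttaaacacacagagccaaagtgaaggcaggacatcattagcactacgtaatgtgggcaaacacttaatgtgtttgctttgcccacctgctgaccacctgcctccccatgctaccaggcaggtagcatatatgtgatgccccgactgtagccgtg

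Relations between the genes were described across the 16 batch-adjusted region means, which share arrays, batches and normalisation. Nodal correlated with Gdf1 (r = 0.864, rho = 0.718), with Lefty1 (r = 0.632, rho = 0.415) and with Lefty2 (r = 0.555, rho = 0.732). Between Nodal and Cer1 (ILMN_2884751) r was 0.0227 and rho 0.168. The inhibitors differed among themselves, with r = 0.188 and rho = 0.382 for Lefty1 with Lefty2, and r = -0.319 and rho = -0.221 for Lefty1 with Cer1. By r the highest of these values was between Nodal and Gdf1, and by rho between Nodal and Lefty2. With the dimmer Nodal probe the values were lower for Gdf1 (r = 0.448, rho = 0.403), Lefty1 (r = 0.0998, rho = -0.0471) and Lefty2 (r = 0.0627, rho = 0.191). For Cer1 (ILMN_2884751) r was then 0.220 and rho 0.159. With the other Cer1 probe r was 0.138 and rho -0.0588 for the main Nodal probe, and 0.326 and 0.529 for the dimmer one. The batch adjustment set batch 1 of the dimmer probe by NSB replicates 1 and 2 (8.56 and 8.90) against undetected replicate 3 (6.32). The adjusted means of this probe in both E10.5 regions, St5 and St1 (3.24 to 3.84) lay under its lowest measured level (4.53). Without the adjustment its r came near that of the main probe, but its rho stayed lower with Gdf1, Lefty1 and Cer1 (ILMN_2884751). Over plain region means the main and dimmer probes gave r = 0.858 and 0.836 with Gdf1 (rho = 0.718 and 0.482), 0.598 and 0.621 with Lefty1 (rho = 0.306 and 0.253), 0.407 and 0.343 with Lefty2 (rho = 0.329 and 0.338), and 0.169 and 0.114 with Cer1 (ILMN_2884751, rho = 0.668 and 0.259). Among the inhibitors the plain values were r = -0.0339 and rho = 0.0412 for Lefty1 with Lefty2. For Lefty1 with Cer1 (ILMN_2884751) they were r = -0.227 and rho = 0.0618.

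The probes most like each gene were ranked by r over the same 16 regions. For the main Nodal probe they were Armc3 (r = 0.966, rho = 0.841), BC065085 (r = 0.963, rho = 0.747) and 1600029I14Rik (r = 0.963, rho = 0.771). For Gdf1 they were Cldn11 (r = 0.916, rho = 0.915), Capsl (r = 0.916, rho = 0.9) and 1110017D15Rik (r = 0.903, rho = 0.803). For Lefty1 they were 5330431N19Rik (r = 0.879, rho = 0.9), Cetn4 (r = 0.866, rho = 0.841) and 4921507P07Rik (r = 0.864, rho = 0.947). For Lefty2 they were Dock4 (r = 0.827, rho = 0.921), Esco1 (r = 0.823, rho = 0.665) and Sec23a (r = 0.808, rho = 0.668). For Cer1 they were Irx5 (r = 0.944, rho = 0.679), Otx2 (r = 0.939, rho = 0.309) and Fam107a (r = 0.934, rho = 0.785), with Cer1 undetected on each array of 13 of the 16 regions. Of these, Irx5 and Otx2 encode homeodomain transcription factors, and the ranking was made among 17865 probes (17864 for Cer1).

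**Figure D2:**
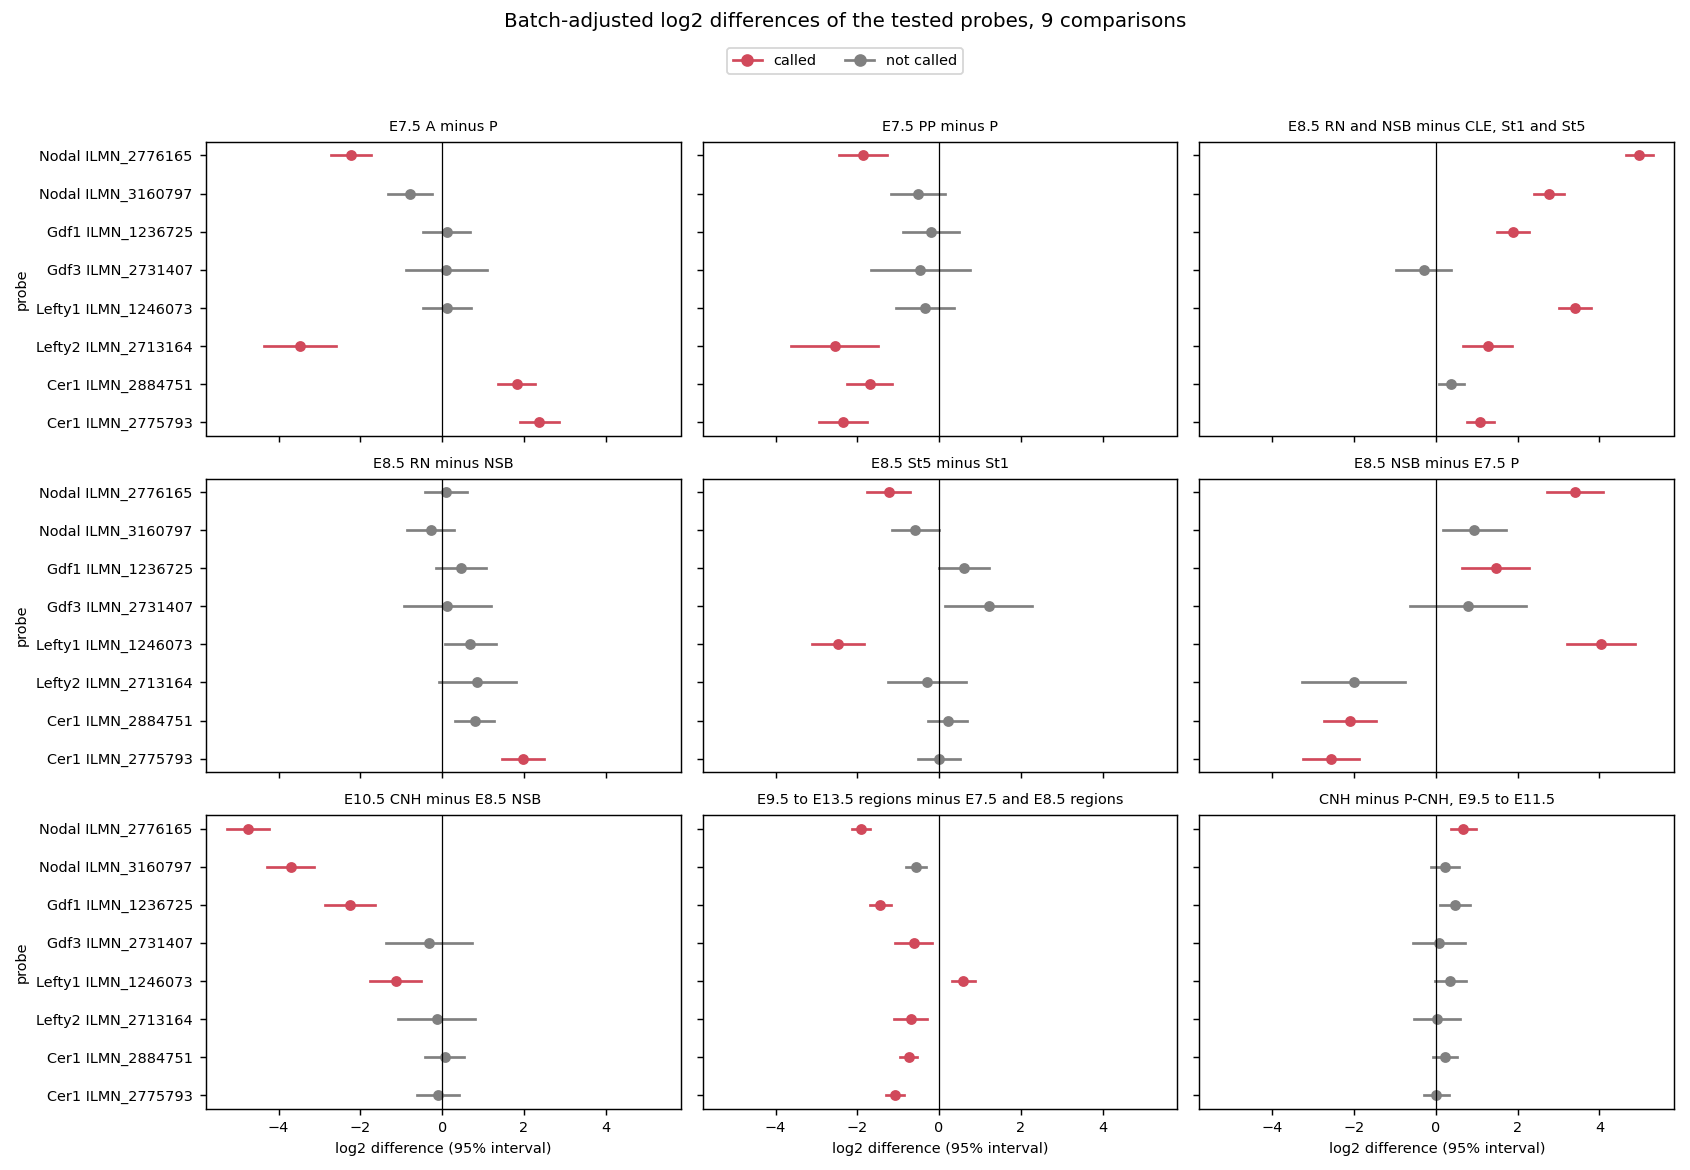
Batch-adjusted log2 differences (x axis) of the 8 tested probes (y axis) in the 9 comparisons, with 95% intervals. Red marks called differences, of which the node comparison had 6 and the late against early comparison 7. Where a probe was undetected on arrays of a group, the drawn value is the fitted one and not a bound.

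The first comparison asked how the anterior and posterior regions differ at E7.5. Nodal and its inhibitor Lefty2 were lower in A than in P, and the inhibitor Cer1 was higher in A. Of the 8 tested probes, 4 were called, where 2.73% of all 21712 probes were called. The ligand Nodal fell at least 3.07-fold (main probe, adjusted p = 1.1e-06), undetected on 3 of 3 A arrays and detected on 2 of 2 P arrays. Lefty2 fell at least 6.48-fold (adjusted p = 1.1e-05) with the same pattern of detection. Cer1 rose by 1.83 ± 0.22 on the log2 scale (SE), or 3.55-fold (adjusted p = 7.4e-06), with its first probe and by 2.38 ± 0.23, or 5.21-fold (adjusted p = 3.9e-07), with its other probe. All arrays of A lay on the same side of all arrays of P for these 4 probes. The dimmer Nodal probe and Lefty1, which were not called, parted the 2 regions as well. With 3 A and 2 P arrays such a separation is no separate support. The dimmer Nodal probe gave -0.78 (adjusted p = 0.144) and was called without the 4 arrays with the fewest detected probes (adjusted p = 0.0227). Gdf1 gave 0.11 (adjusted p = 0.988), Lefty1 0.12 (adjusted p = 0.988) and Gdf3 0.10 (adjusted p = 0.995), and these 3 were not called.

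Batch 2 held 2 A arrays and both P arrays and gave the same 4 calls alone, with fitted differences of -2.12 for Nodal, -3.24 for Lefty2, and 2.00 and 2.25 for Cer1. Over the 8 probes the median difference was 0.11, also with undetected groups at their bound, beside 0.04 over all probes. The anterior neurectoderm list moved with these results: 3 of 5 genes were higher in A, and its summed intensity was 5046 to 9425 in A and 1700 to 2354 in P, with Otx2 most abundant. The primitive streak list was lower for 5 of 5 genes, with sums of 1480 to 2534 in A and 15483 to 16604 in P and T most abundant. Of the other lists, somite and anterior presomitic mesoderm genes were lower for 2 of 3, visceral endoderm genes for 1 of 7 and lateral plate genes for 1 of 5, while node and notochord genes were higher for 1 of 6 and definitive endoderm genes for 1 of 5. The part of these cell types in the differences of Nodal, Lefty2 and Cer1 was not tested.

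Among the other 40 listed genes of the pathway, 32 were tested. Smad4 and Drap1 had no probe, and Pcsk5, Acvr1c, Zfyve9, Smad7, Pkd1l1 and Rfx3 were not detected on any array. Between A and P, 2 genes were higher and 5 lower, with a median of 0.02 (0 with bounds) beside 0.04 over all probes. Gsc, an organiser homeobox gene, rose at least 8.37-fold (adjusted p = 4.9e-05). Fst, which encodes the activin antagonist follistatin, changed by -3.77 (adjusted p = 1.6e-06), the streak gene Mixl1 fell at least 2.98-fold (adjusted p = 8.8e-06) and the nascent mesoderm gene Mesp1 changed by -2.29 (adjusted p = 0.0033). Of the 10 tested genes for receptors, transducers, co-receptors and convertases, 0 were called with limma and 3 had an unadjusted p under 0.05.

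The next comparison set PP, the proximal posterior region, against P, the posterior region, at E7.5. Nodal, Lefty2 and Cer1 were lower in PP, with 4 of 8 probes called where 0.792% of all probes were. Nodal changed by -1.87 ± 0.28, at least 3.56-fold (adjusted p = 9.2e-04), and the 2 PP arrays, of which 1 detected it, lay below the 2 P arrays. Cer1 was undetected on both PP arrays and fell at least 2.14-fold (adjusted p = 0.0011) and at least 2.46-fold (adjusted p = 4.9e-05) with its 2 probes. Lefty2 changed by -2.56 ± 0.52, at least 5.17-fold (adjusted p = 0.0146), without overlap although the PP arrays were 5.28 and 7.03. This call for Lefty2 ended without P replicate 1, without P replicate 2 or without PP replicate 1. Leaving out 1 array gave Lefty2 differences of -3.43 to -1.68, and the bound of 5.17-fold holds only for all P and PP arrays together. The other values were -0.51 for the dimmer Nodal probe (adjusted p = 0.609), -0.20 for Gdf1 (adjusted p = 0.889), -0.46 for Gdf3 (adjusted p = 0.847) and -0.34 for Lefty1 (adjusted p = 0.791). The signs for Gdf1 and Lefty1 came with the batch term, since the plain levels were higher in PP without overlap, by 0.38 for Gdf1 and by 0.13 for Lefty1, which was undetected in both regions.

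PP was measured in batch 3 and P in batch 2, so that no batch alone gives this difference. Without background correction the first Cer1 probe was not called (-0.77, adjusted p = 0.0699), and Lefty2 was not called with cyclic loess normalisation (-1.88, adjusted p = 0.125) or with BeadChip as a random block (-2.37, adjusted p = 0.0601). The median over the 8 probes was -1.10 (-0.78 with bounds) beside 0.01 over all probes. Anterior neurectoderm genes were lower for 2 of 5, with sums of 248 to 257 in PP and 1700 to 2354 in P, and Six3 and Hesx1 undetected in both regions. Visceral endoderm genes (Ttr, Afp, Amn, Rbp4, Apob, Apoa1 and Apoa2) were higher for 2 of 7, with sums of 17969 to 37659 in PP and 6066 to 10763 in P and Ttr most abundant in PP. Genes of somite and anterior presomitic mesoderm were lower for 3 of 3 tested, with sums of 219 to 602 in PP and 2266 to 2913 in P. Node and notochord genes were called for 0 of 6 with limma (4 lower at an unadjusted p under 0.05), with sums of 359 to 360 in PP and 1208 to 1677 in P, and 3 of 6 were detected on each PP array and 6 of 6 on each P array. Primitive streak, posterior streak and lateral plate genes were higher for 1 of 5, 1 of 4 and 1 of 5. Whether these mixtures take part in the lower Nodal, Lefty2 and Cer1 levels was not tested. Among the 32 other pathway genes, 1 was higher, Mixl1 with 1.98 (adjusted p = 0.0429), and 0 were lower with limma (1 at an unadjusted p under 0.05), and their median was 0.14 (0.02 with bounds).

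At E8.5 the node domain, RN and NSB, was set against CLE, St1 and St5. Nodal, Gdf1 and Lefty1 were higher in the node domain, and 6 of 8 probes were called, all of them higher, where 4.58% of all probes were called in either direction. Nodal rose by 4.98 ± 0.16, at least 19.6-fold (adjusted p = 5.9e-16), with 3 of the 7 other arrays, those of CLE, undetected, and its lowest node array (10.60) lay above the highest of the other arrays (7.19). The dimmer Nodal probe, detected on 4 of the 5 node arrays and 0 of the 7 others, rose at least 4.76-fold (adjusted p = 8.3e-11). Gdf1 rose by 1.89 ± 0.19, or 3.70-fold (adjusted p = 1.4e-07), with 12.28 to 12.89 on node arrays (median 12.39) and 9.38 to 11.29 on the others (median 10.62). Gdf3 gave -0.30 (adjusted p = 1.00) and was not called.

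Of the inhibitors, Lefty1 was clear of the other regions around the node. It rose by 3.41 ± 0.19, at least 6.30-fold (adjusted p = 9.6e-12), undetected on 5 of the 7 other arrays, with no overlap between 8.54, the lowest node array, and 7.59, the highest of the others. Lefty2 was called with a fitted difference of 1.27 ± 0.29 (adjusted p = 0.0071), but 5 of the 7 other arrays did not detect it and its bound, at least 1.25-fold, was under the fold threshold. Its groups overlapped, with 5.48 to 6.87 on node arrays (median 6.48) and 4.45 to 6.08 on the others (median 5.09). Without RN replicate 2 Lefty2 missed the threshold (adjusted p = 0.0597), as it did with cyclic loess normalisation (1.00, adjusted p = 0.127). The Cer1 probe ILMN_2775793 was called (adjusted p = 3.6e-05) with detection on the 2 RN arrays of 5 node arrays. Its groups overlapped, and no fold is given because the bound was under 1. The first Cer1 probe gave 0.38 (adjusted p = 0.238).

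In batch 1 alone, with RN, NSB replicates 1 and 2, St1 and St5, 5 probes were called. Nodal then differed by 4.26, the dimmer probe by 3.57, Lefty1 by 2.94, Gdf1 by 1.74, Lefty2 by 0.63 (adjusted p = 0.0535, not called) and Cer1 by 1.14. Batch 3 alone set 1 array, NSB replicate 3, against 2 CLE arrays, too few for a missed threshold to show a smaller difference. It called 0 of the 21712 probes with limma (858 of them, and 3 of the 8, had an unadjusted p under 0.05), with differences of 6.27 for Nodal (adjusted p = 0.0566), 3.99 for Lefty1, 1.79 for Gdf1, 2.02 for Lefty2 and 1.24 for the dimmer Nodal probe. NSB replicate 3 is the array that links the regions of batch 1 to the other batches, and without it this difference could not be fitted. With all arrays the median over the 8 probes was 1.58 beside -0.04 over all probes.

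Cell type markers moved with this comparison as well. Node and notochord genes were higher for 5 of 6, and their summed intensity was 6504 to 7761 in RN and 5179 to 6501 in NSB, with Shh most abundant, against 345 to 550 in CLE, 707 to 787 in St1 and 522 to 554 in St5. Noto was undetected in CLE and St5. Definitive endoderm genes (Sox17, Trh, Cldn6, Foxa1 and Hhex) were higher for 4 of 5 and lower for 1, with sums of 11531 to 14499 in RN and NSB against 3706 to 5646 in CLE, from which endoderm had been dissected, 10197 to 11028 in St1 and 6721 to 8359 in St5. Posterior streak genes were lower for 4 of 4, primitive streak genes for 4 of 5 (sums of 6756 to 23741 in RN and NSB and 13510 to 29783 in CLE, St1 and St5), lateral plate genes for 2 of 5 and surface ectoderm genes for 1 of 5. Somite and anterior presomitic mesoderm genes were higher for 3 of 3 tested (sums of 516 to 1480 in RN and NSB and 143 to 286 in CLE, St1 and St5), anterior neurectoderm genes for 2 of 5 and blood genes for 2 of 6. The part of the cell mixture in the higher Nodal, Gdf1 and Lefty1 levels was not tested.

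Of the 32 other pathway genes, 6 were higher and 2 lower in the node domain, with a median of 0.08 beside -0.04 over all probes. Noto, a node homeobox gene, rose at least 6.06-fold (adjusted p = 1.4e-07), Dand5, a Nodal antagonist of the node rim, rose at least 4.96-fold (adjusted p = 9.4e-14) and Bicc1, an RNA-binding gene of node cells, rose by 3.02 (adjusted p = 2.5e-14). Dand5 was detected on 5 of 36 arrays, the 2 RN and 3 NSB arrays. Mixl1 fell at least 3.46-fold (adjusted p = 3.2e-06) and Mesp1 at least 3.35-fold (adjusted p = 7.2e-05).

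Within the node domain, RN and NSB were compared. Cer1 was higher in RN, and Nodal gave nearly the same level in both. Of the 8 probes, 1 was called, where 0.134% of all probes were called. This was the Cer1 probe ILMN_2775793, detected on 2 of 2 RN and 0 of 3 NSB arrays and higher by at least 1.90-fold (adjusted p = 3.3e-04). With the batch term this difference comes from the 2 RN and 2 NSB arrays of batch 1, so that batch 1 alone had to give the same fitted difference (1.99, adjusted p = 7.9e-05) and is no separate support. The other Cer1 probe gave 0.79 (adjusted p = 0.563). Lefty1 gave 0.69 and Gdf1 0.45, each with RN arrays above NSB arrays, and Lefty2 gave 0.86, Nodal 0.09, its dimmer probe -0.28 and Gdf3 0.13, all with adjusted p = 1. The sign of the last 3 turned in the plain means (-0.05, 0.53 and -0.27). The 95% intervals in the plot of differences are wide here, and a missed threshold does not show equal levels.

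The median over the 8 probes was 0.57 (0.29 with bounds), beside -0.00 over all probes. Primitive streak genes were lower in RN for 4 of 5, with sums of 6756 to 8602 in RN and 20243 to 23741 in NSB. Somite and anterior presomitic mesoderm genes were higher for 1 of 3 tested. Visceral endoderm genes were called for 0 of 7 with limma (2 higher at an unadjusted p under 0.05). Their sums were 1981 to 2675 in RN and 702 to 1340.5 in NSB. Definitive endoderm genes were called for 0 of 5 (1 lower at an unadjusted p under 0.05). Their sums were 11531 to 12044 in RN and 13997 to 14499 in NSB. Blood (0 of 6), anterior neurectoderm (0 of 5) and posterior streak genes (0 of 4) were not called either. Of these, 3, 2 and 2 were higher at an unadjusted p under 0.05 with limma. The part of these cell types in the Cer1 difference was not tested. Node and notochord genes were called for 0 of 6 with limma, and 0 had an unadjusted p under 0.05. Among the other 32 pathway genes, Mixl1 was lower (at least 2.89-fold, adjusted p = 0.0315) and 0 were higher with limma (1 at an unadjusted p under 0.05), with a median of -0.01.

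The posterior and anterior ends of the streak were compared at E8.5. Nodal and Lefty1 were lower in St5 than in St1, and 2 of 8 probes were called, where 3.27% of all probes were. Nodal changed by -1.23 ± 0.25, or 2.35-fold (adjusted p = 0.0037), with both St5 arrays below both St1 arrays. Lefty1 was undetected in St5 and fell at least 3.45-fold (adjusted p = 1.2e-05). The Nodal call ended without St1 replicate 1 or without St5 replicate 2 (highest adjusted p 0.124). The other ligands were brighter in St5 without being called, Gdf1 by 0.61 (adjusted p = 0.553) and Gdf3 by at least 1.46-fold (adjusted p = 0.370). Both had St5 arrays above St1 arrays. The dimmer Nodal probe gave -0.58 (adjusted p = 0.553), and Lefty2 gave -0.30 and Cer1 0.21 and 0.01.

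All 4 arrays lay in batch 1. Fitted alone, batch 1 called 4 of 8 probes, adding Gdf1 (0.61, adjusted p = 0.0102) and Gdf3 (fitted difference 1.22, adjusted p = 1.0e-04), while it called 2706 of all probes against 709 with the 36 arrays. Gdf3 was also called with cyclic loess normalisation (1.27, adjusted p = 0.00115) and without the 4 arrays with the fewest detected probes (1.22, adjusted p = 2.0e-04). Over the 8 probes the median was -0.14 beside -0.01 over all probes. Posterior streak genes were higher in St5 for 4 of 4, with sums of 8358 to 10347 in St5 and 533 to 564 in St1 and Tbx4 most abundant in St5. Lateral plate genes (Foxf1, Hand1, Hand2, Gata4 and Gata6) were higher for 4 of 5, with sums of 2219 to 2395 against 213 to 257. Primitive streak genes were higher for 1 of 5, anterior neurectoderm genes lower for 1 of 5, somite and anterior presomitic mesoderm genes lower for 1 of 3 tested, and definitive endoderm genes higher for 1 and lower for 1 of 5. Their part in the Nodal and Lefty1 differences was not tested.

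Among the other pathway genes, 6 of 32 were higher and 3 lower in St5, with a median of 0.08 (0.07 with bounds). Mesp1 rose by 3.21 (adjusted p = 1.5e-04) and Mixl1 by 2.48 (adjusted p = 5.0e-04). Fst changed by -2.0 (adjusted p = 0.0070), Bicc1 by -1.0 (adjusted p = 0.0022) and the axonemal dynein gene Dnahc11 by -0.86 (adjusted p = 0.0110). Cfc1, which encodes the other EGF-CFC co-receptor Cryptic, was the co-receptor gene called here. It was detected on 2 of 2 St5 arrays and 0 of 2 St1 arrays and rose at least 3.59-fold (adjusted p = 8.3e-05), a gene singled out after its values were seen because Tdgf1 was undetected.

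From E7.5 to E8.5 the posterior region P was set against the node-streak border. P took in the primitive streak and more of the embryo than NSB did, with 9 to 13 pieces per pool against 45 to 57. Stage and dissected extent thus changed together, and their parts in these differences cannot be told apart. Nodal, Gdf1 and Lefty1 were higher in NSB and Cer1 was lower, with 5 of 8 probes called where 3.07% of all probes were. Nodal rose by 3.40 ± 0.33, or 10.6-fold (adjusted p = 1.2e-06), and Lefty1, undetected in P, rose at least 7.27-fold (adjusted p = 1.3e-06). Gdf1 rose by 1.46 ± 0.39, or 2.76-fold (adjusted p = 0.0434), with the 3 NSB arrays above the 2 P arrays. The plain means of Gdf1, without the batch term, differed by 2.11, or 4.32-fold. Cer1, undetected in NSB, fell at least 1.79-fold (adjusted p = 2.0e-04) and at least 2.07-fold (adjusted p = 3.4e-05) with its 2 probes. Lefty2 gave -2.01 (adjusted p = 0.0779) and was not called, although its arrays did not overlap. The dimmer Nodal probe gave 0.94 (adjusted p = 0.199) and Gdf3 gave 0.79 (adjusted p = 0.650).

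The Gdf1 call was near the threshold and ended in 22 of 35 fits that left out 1 array, namely without any of the 12 arrays of batch 1, either P array, either PP array, A replicate 1, either E9.5 CNH array, either E12.5 CNH array or E11.5 CNH replicate 3 (differences of 1.30 to 1.62 over the 35 fits, highest adjusted p 0.145), and with a covariate counting the detected probes (1.36, adjusted p = 0.0531). No batch held both regions. With the batch term NSB replicates 1 and 2 set the level of batch 1, so that the NSB side of these fitted differences rests on 1 array, NSB replicate 3, without which no value could be fitted. With cyclic loess normalisation both Cer1 probes missed the threshold (adjusted p = 0.124 and 0.176). Lefty2 was called without background correction (-1.50), without a batch term (-2.64), with ComBat (-2.02) and with BeadChip as a random block (-2.19). Nodal's dimmer probe was called without a batch term (2.14), with ComBat (0.95), with BeadChip as a random block (1.98) and without the 4 arrays with the fewest detected probes (0.93), and Gdf3, undetected in both regions, in the last of these (1.10). The ComBat fit spent no degrees of freedom on batch, so that its added calls are no separate support. Across the 8 probes the median was 0.86 beside -0.02 over all probes.

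Node and notochord genes were higher in NSB for 3 of 6 (sums of 5179 to 6501, and 1208 to 1677 in P), blood genes were higher for 1 of 6, and genes of anterior neurectoderm (1 of 5), visceral endoderm (2 of 7), posterior streak (1 of 4), somite and anterior presomitic mesoderm (1 of 3 tested) and lateral plate (2 of 5) were lower, and the part of these cell types was not tested. Of the 32 other pathway genes, 4 were higher and 3 lower, with a median of 0.01. Noto rose by 2.77 (adjusted p = 0.0460), Dand5 at least 4.04-fold (adjusted p = 7.5e-05) and Foxa2, a forkhead gene of node and endoderm, by 2.12 (adjusted p = 0.0420). Mesp1 fell at least 5.11-fold (adjusted p = 0.0051) and Lhx1 changed by -1.20 (adjusted p = 0.0308).

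From E8.5 to E10.5 the node-streak border was compared with the chordoneural hinge. Nodal, Gdf1 and Lefty1 were lower in E10.5 CNH, and 4 of 8 probes were called, where 7.14% of all probes were. Nodal changed by -4.74 ± 0.25, or 26.8-fold (adjusted p = 4.7e-12), and remained detected on both E10.5 CNH arrays. The dimmer Nodal probe, detected on 2 of 3 NSB arrays and 0 of 2 CNH arrays, fell at least 4.98-fold (adjusted p = 2.1e-09). Gdf1 changed by -2.26 ± 0.29, or 4.79-fold (adjusted p = 1.0e-05). Lefty1 changed less, by -1.14 ± 0.30, or 2.20-fold (adjusted p = 0.0195), again without overlap. The Lefty1 call ended without NSB replicate 2 or without E10.5 CNH replicate 2 (highest adjusted p 0.313) and with cyclic loess normalisation (adjusted p = 0.213). Lefty2 gave -0.13, Gdf3 -0.32 and Cer1 0.06 and -0.11, each with adjusted p = 1.00.

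These differences too come from the arrays of batch 1, so that batch 1 alone had to give the same values and called 4 of 8 probes, while 4282 of all probes were called against 1550 with the 36 arrays. Across the 8 probes the median was -0.73 beside -0.01 over all probes. Node and notochord genes were called for 0 of 6 with limma (2 at an unadjusted p under 0.05, both lower), with sums of 3174 to 4259 in E10.5 CNH and 5179 to 6501 in NSB and Shh most abundant in both. Definitive endoderm genes were lower for 3 of 5 (sums of 2664 to 3095 and 13997 to 14499) and blood genes higher for 3 of 6. Genes of anterior neurectoderm (2 of 5), visceral endoderm (2 of 7), posterior streak (1 of 4) and lateral plate (1 of 5) were lower, and genes of primitive streak (1 of 5) and of somite and anterior presomitic mesoderm (1 of 3 tested) higher, and the part of these cells was not tested.

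Of the 32 other pathway genes, 11 were lower and 0 higher with limma (2 higher at an unadjusted p under 0.05), with a median of -0.24. Fst fell at least 31.1-fold (adjusted p = 2.1e-09), Lhx1 fell at least 10.6-fold (adjusted p = 3.6e-12) and Dand5 fell at least 5.51-fold (adjusted p = 2.6e-11). The lists they come from divided as 1 of 3 co-receptor and convertase genes, 1 of 4 receptors, 1 of 3 transducers, 2 of 8 brakes, 4 of 8 downstream transcription factors and 2 of 6 genes of node flow and perinodal sensing.

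**Figure D3:**
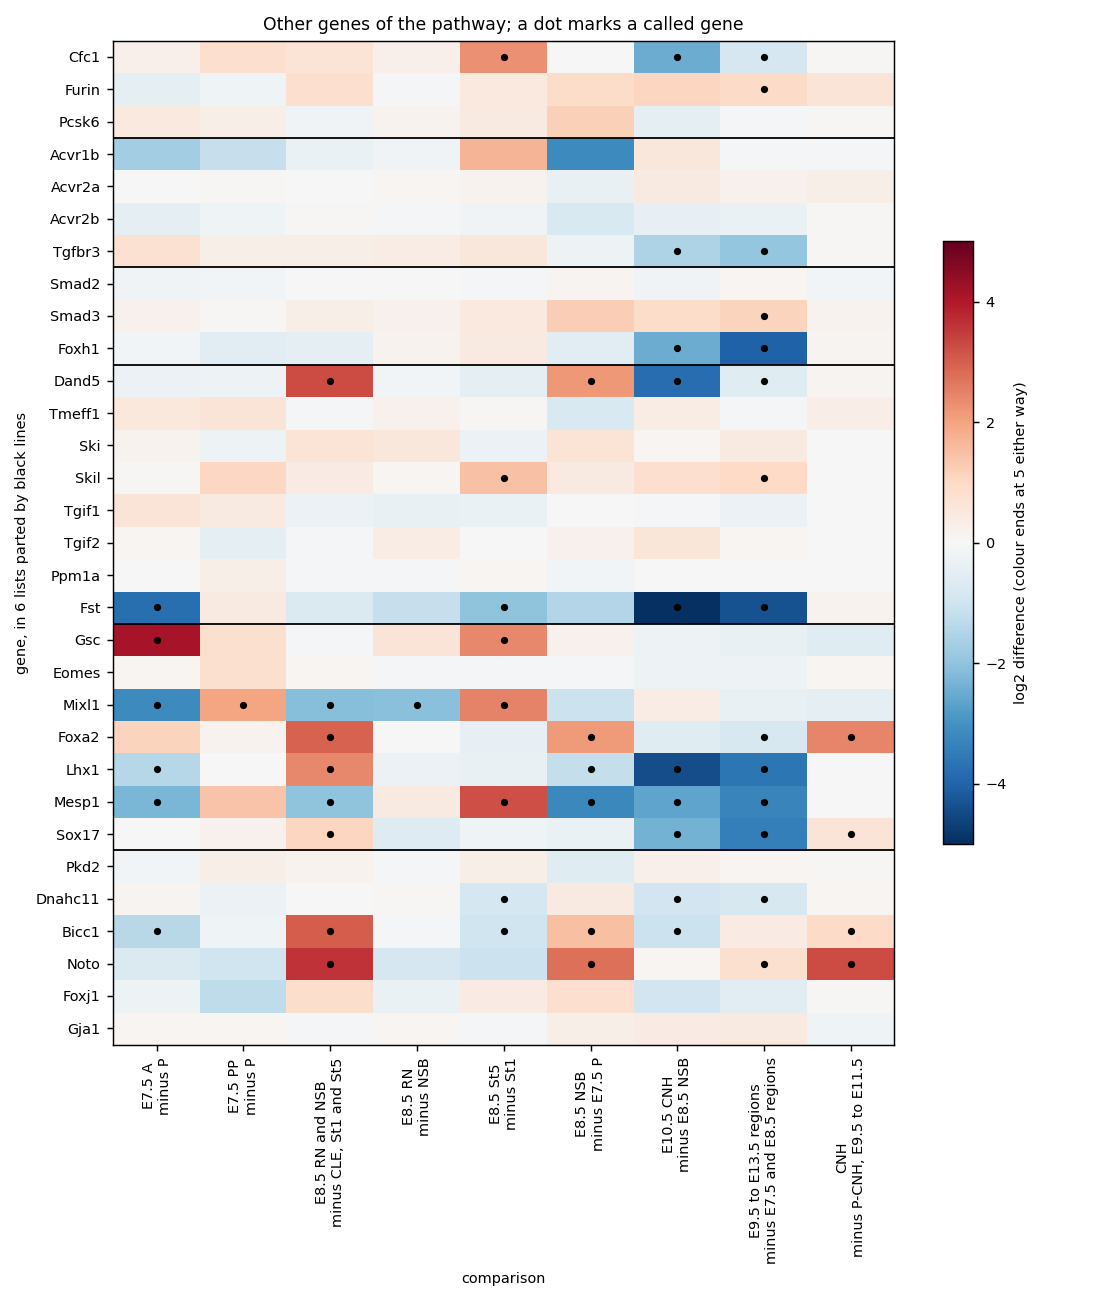
Batch-adjusted log2 differences of 31 of the 32 tested genes of the pathway lists (y axis, lists parted by black lines) in the 9 comparisons (x axis), where red is higher and blue lower in the region named first. A dot marks a called gene, and the column of E10.5 CNH minus E8.5 NSB holds 10 dots, all lower. For genes undetected in a group the colour shows the fitted value and not a bound.

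The 17 arrays of E9.5 to E13.5 were then compared with the 19 arrays of E7.5 and E8.5, each region weighing the same. Nodal and Gdf1 were lower on average at the later stages. Of the 8 probes 7 were called, where 19.1% of all probes were, but for Gdf3, Lefty1, Lefty2 and both Cer1 probes the bound was under 1, so that no fold is given. Nodal lay between 4.82 and 6.22 (median 5.33) at the later stages and between 4.50 and 11.06 (median 6.02) before. It changed by -1.92 ± 0.11, at least 2.31-fold (adjusted p = 2.5e-12), and was detected on 3 of 17 later and 12 of 19 earlier arrays. Gdf1 lay between 8.75 and 10.26 (median 9.52) and between 9.38 and 12.89 (median 10.64), and changed by -1.43 ± 0.13 (adjusted p = 5.9e-09). Gdf3 gave a fitted difference of -0.62 ± 0.22 (adjusted p = 0.0351), but 1 of 17 later and 3 of 19 earlier arrays detected it, and the brightest array was a later one (7.24). For the dimmer Nodal probe the fit gave a difference of -0.56 (adjusted p = 8.4e-04), which missed the fold threshold, and was called without a batch term, with BeadChip as a random block (-0.86), with a replicate block (-0.68) and in batch 1 alone (-1.94).

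Lefty1 gave a positive fitted difference between the stages without a steady course. It lay between 5.17 and 7.88 (median 7.19) on later arrays, of which 14 of 17 detected it, and between 4.59 and 9.51 (median 4.96) on earlier arrays, of which 7 of 19 did. The fitted difference was 0.60 ± 0.13 (adjusted p = 9.7e-04), just past the fold threshold, and the groups overlapped, with the brightest arrays in RN and NSB. Lefty2 gave a fitted difference of -0.69 ± 0.20 (adjusted p = 0.0087), between 4.47 and 7.03 (median 5.70) later and between 4.45 and 8.77 (median 5.81) earlier, and was undetected on 9 of 17 later arrays. Cer1 was undetected on 17 of 17 later arrays and detected on 6 and 7 of 19 earlier arrays with its 2 probes (adjusted p = 3.9e-06 and 4.0e-08), so that most earlier arrays were undetected as well. All 8 probes overlapped between the stages.

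These averages differed between batches, which hold different regions. In batches 1, 2 and 3 alone Nodal differed by -3.03, -0.44 and -1.49, Gdf1 by -1.94, -0.75 and -1.58, and Lefty1 by -0.08, 1.63 and 0.67. The Lefty1 call fell under the threshold of 1.5-fold in 9 of 35 fits that left out 1 array (0.54 to 0.66), namely St1 replicate 1, St5 replicate 2, NSB replicate 2, CLE replicate 3, E9.5 P-CNH replicate 2, E10.5 CNH replicate 1, E11.5 CNH replicate 2, E11.5 P-CNH replicate 1 and E12.5 CNH replicate 2. The Gdf3 call ended in 10 of 35 (highest adjusted p 0.0672), namely without A replicate 2, P replicate 1, NSB replicate 1, CLE replicate 1, St1 replicate 2, St5 replicate 1, E9.5 P-CNH replicate 2, E11.5 CNH replicate 3, E12.5 CNH replicate 2 or E13.5 CNH replicate 1. The Lefty2 call ended without PP replicate 2 (-0.58). Without background correction 4 of the 7 calls ended, those of Lefty1 (0.20), Lefty2 (-0.40), Gdf3 (-0.33) and the Cer1 probe ILMN_2884751 (-0.38). Lefty2 and Gdf3 were not called without a batch term, with BeadChip as a random block or with cyclic loess normalisation (-0.51 and -0.46). The Gdf3 call also ended without a filter on dim probes (adjusted p = 0.0712) and with a covariate counting the detected probes (-0.58), and that of Lefty1 with a replicate block (0.48) and without the 4 arrays with the fewest detected probes (0.57). The median over the 8 probes was -0.71 (-0.31 with bounds) beside -0.02 over all probes. Visceral endoderm genes were lower for 7 of 7, definitive endoderm genes for 3 of 5, and blood genes (Alas2, Hba-a1, Hba-x, Hbb-b1, Hbb-bh1 and Hbb-y) higher for 6 of 6, with sums of 4144 to 61628 later and 194 to 9101 earlier. Surface ectoderm genes (Trp63, Krt14, Krt15, Grhl3 and Cldn4) were higher for 2 of 5, with Krt14 most abundant in E13.5 CNH. Primitive streak genes were higher for 4 of 5 (sums of 10744 to 44805 later), posterior streak genes lower for 3 of 4, lateral plate genes for 3 of 5 and anterior neurectoderm genes for 2 of 5, and the node and notochord list and the somite and anterior presomitic mesoderm list each had 1 gene higher and 1 lower. The part of these cell types in the differences between stages was not tested.

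Later stages had 4 of the 32 other pathway genes higher and 11 lower, with a median of -0.28 (-0.06 with bounds). Foxh1, the nuclear partner of the SMAD proteins, was detected on 19 of 19 earlier and 0 of 17 later arrays and fell at least 4.96-fold (adjusted p = 7.8e-15). Fst fell at least 16.8-fold (adjusted p = 1.9e-14) and Lhx1 fell at least 4.68-fold (adjusted p = 6.6e-18). Smad3, a transducer, rose by 1.10 (adjusted p = 0.0011), Skil, a SMAD repressor, by 1.01 (adjusted p = 3.8e-06) and Furin, a convertase, by 0.94 (adjusted p = 9.1e-04).

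The last comparison set the chordoneural hinge against the region posterior to it, averaged over E9.5, E10.5 and E11.5. The fitted Nodal level was slightly higher in CNH, and 1 of 8 probes was called, where 0.599% of all probes were. The main Nodal probe lay between 5.15 and 6.22 (median 5.91) in 7 CNH arrays, of which 3 detected it, and between 4.82 and 5.49 (median 5.13) in 6 P-CNH arrays, of which 0 did. The fitted difference was 0.67 ± 0.15 (adjusted p = 0.0352) with overlapping arrays, and no fold is given because the bound was under 1. Lefty1 gave 0.35 (adjusted p = 1.00), Gdf1 gave 0.47 (adjusted p = 0.674) and the remaining probes gave between 0.01 and 0.23.

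The Nodal call ended in 15 of 36 fits that left out 1 array, namely without either array of E9.5 CNH, E10.5 CNH, E10.5 P-CNH or RN, without NSB replicate 1 or 2, E11.5 CNH replicate 1 or 3, E9.5 P-CNH replicate 1, E11.5 P-CNH replicate 2 or A replicate 1 (0.52 to 0.75, highest adjusted p 0.425). It also ended without background correction (0.33, adjusted p = 0.188), with cyclic loess normalisation (0.49, adjusted p = 0.641) and with a replicate block (0.64, adjusted p = 0.18). In batches 1, 2 and 3 alone the difference was 0.75 (adjusted p = 0.0150), 1.26 (adjusted p = 0.316) and 0.39 (adjusted p = 1.00). Each batch holds both regions at 1 stage (E10.5, E9.5 and E11.5), and batch 2 has 1 P-CNH array and batch 3 has 1 CNH array there, so that these missed thresholds say little. By stage it was 0.97 at E9.5 (adjusted p = 0.245), 0.75 at E10.5 (adjusted p = 0.745) and 0.29 at E11.5 (adjusted p = 1.00), and the differences between stages were not called, the largest being -0.68 for E11.5 minus E9.5 (adjusted p = 0.876). The median over the 8 probes was 0.23 (0.15 with bounds) beside 0.00 over all probes.

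Node and notochord genes were higher in CNH for 3 of 6. Their sums were 2434 to 2657 in CNH and 411 to 587 in P-CNH at E9.5, and 3174 to 4259 and 500 to 518 at E10.5, with Shh most abundant in CNH and Foxa2 undetected on each P-CNH array. Definitive endoderm genes were higher for 3 of 5 and somite and anterior presomitic mesoderm genes for 1 of 3 tested, and the part of these cells in the Nodal difference was not tested. Of the 32 other pathway genes, 4 were higher and 0 lower with limma (0 lower at an unadjusted p under 0.05), with a median of 0.05. Noto rose at least 5.95-fold (adjusted p = 3.1e-06), Foxa2 at least 2.75-fold (adjusted p = 3.3e-06) and Bicc1 by 0.95 (adjusted p = 3.2e-05).

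**Figure D4:**
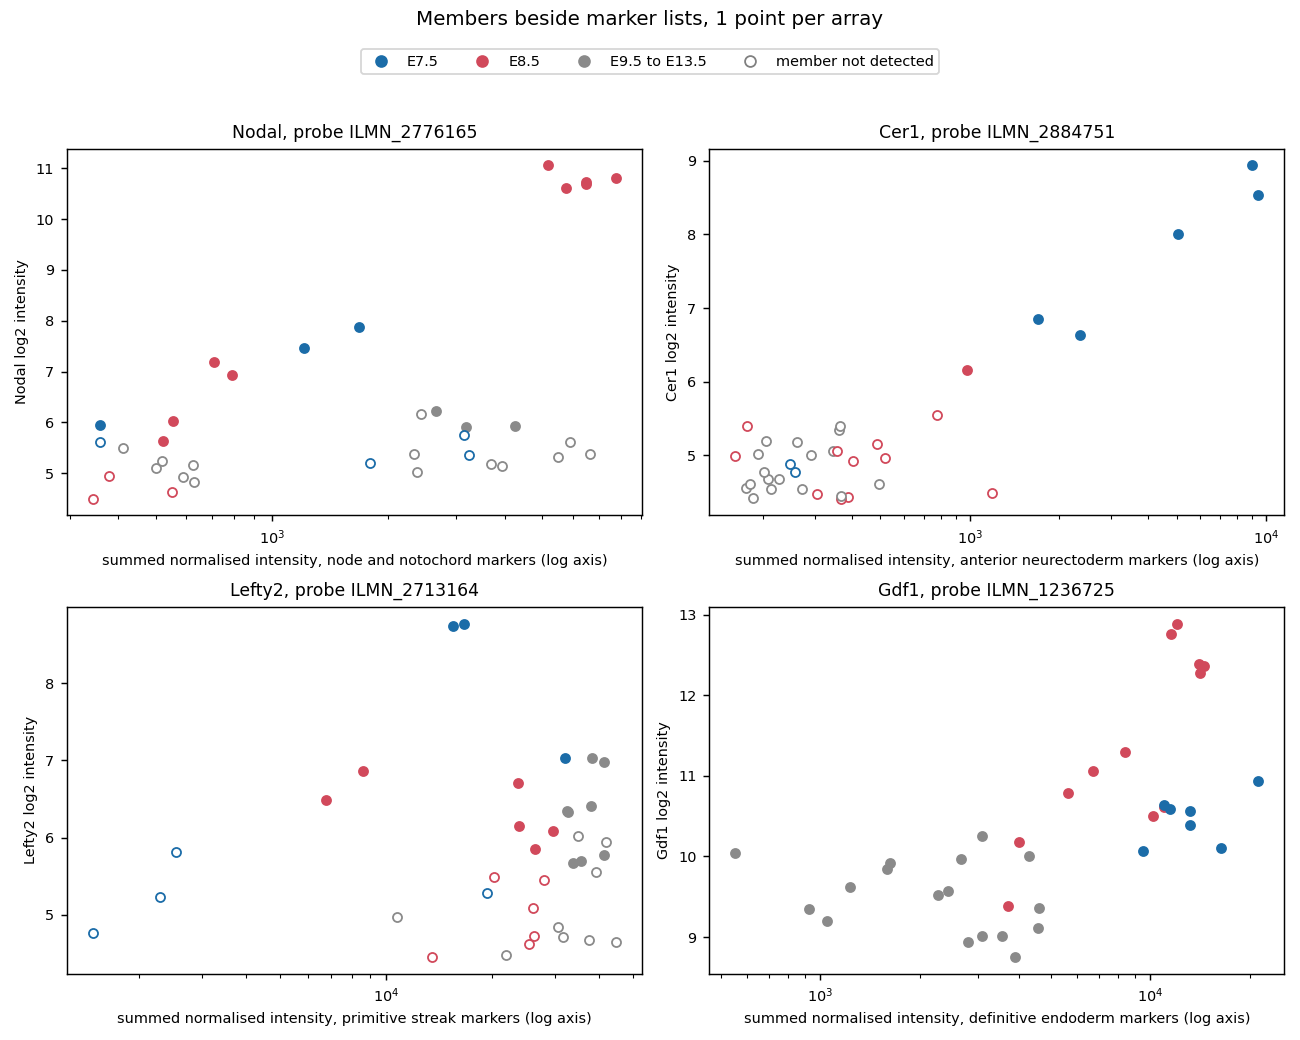
Log2 intensity of Nodal, Cer1, Lefty2 and Gdf1 (y axes) against the summed normalised intensity of a marker list on the same array (x axes, log scale), 1 point per array, with open circles where the gene was not detected. Nodal was 10.60 or more on the 5 arrays of RN and NSB, and between 5.03 and 6.22 on the CNH arrays.

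The plot of genes beside marker lists sets the levels against the cell types of each pool. The E12.5 CNH arrays had node and notochord sums of 6645 and 2367, and Nodal levels of 5.38 and 5.03 without detection. Cer1 was brightest on the 3 A arrays, which had the highest anterior neurectoderm sums of the 36 arrays. The endoderm lists are not drawn for Cer1. Definitive endoderm sums were 13142 to 21226 in A and 9507 to 13232 in P. Visceral endoderm sums were 2104 to 10890 in A and 6066 to 10763 in P. Lefty2 was brightest on the 2 P arrays, at primitive streak sums of 15483 and 16604. The tail bud arrays of E9.5 to E12.5 had sums of 30614 to 44805 and Lefty2 levels of 4.64 to 7.03. Gdf1 was brightest on RN and NSB, with definitive endoderm sums of 11531 to 14499, and A had sums of 13142 to 21226 and Gdf1 levels of 10.11 to 10.93. The plot tests no part of a cell type in a level.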

How the data were processed

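Amplified, biotin-labelled RNA of 36 pools from 16 regions was measured on 6 MouseWG-6 v2.0 BeadChips in 3 batches. The deposited values were the mean bead intensity of each of 45281 probes on a linear scale, without background correction or normalisation. The deposited detection p-value of each probe compared it with the negative controls of its array, in steps of 1 in 936. The scanner software version was not given in the sources used here. The submitters' processing with lumi and ComBat was replaced here by neqc (normal-exponential background correction from the detection p-values, offset 16, quantile normalisation, log2) and a batch term. Log2 values were computed here with R 4.3.3 and limma 3.58.1.

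Of the probes, 23569 with no array at detection p under 0.01 were left out and 21712 were tested. Each probe was fitted with limma on 16 regions and 3 batches (18 residual degrees of freedom), with p-values adjusted by Benjamini-Hochberg over all tested probes within a comparison. Calls needed an adjusted p no higher than 0.05 and a change of 1.5-fold or more. The code was tested on simulated data. The number of arrays, 2 or 3 per region, limits the precision.

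All probes of the 7 genes were used, and the one with the highest mean log2 level represents a gene. Of the pathway lists (co-receptors and convertases, receptors, transducers, brakes, downstream transcription factors, node flow and perinodal sensing), up to 3 called genes per comparison and direction with the largest log2 difference are named. The result of 1 listed gene is not reported here and not drawn, and the counts and medians of the lists include it. For each gene detected on at least 6 arrays, the 3 most correlated probes are named. Marker lists covered anterior neurectoderm, primitive streak, posterior streak, node and notochord, visceral endoderm, definitive endoderm, somite and anterior presomitic mesoderm, lateral plate mesoderm, blood and surface ectoderm. The 7 genes and the lists were chosen with earlier results of these data known.

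Alternatives were no background correction, cyclic loess normalisation, no batch term, ComBat (coded here), BeadChip as a random block, a stricter and no detection filter, a replicate block, each batch alone, the other probe of a gene, and leaving out each array. Leaving out the 4 arrays with the fewest detected probes (10814 to 12289) and a covariate for how many probes an array detected were alternatives chosen after seeing the data, as was the bound for probes that part of the dimmer group did not detect.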

Additional observations from a re-analysis of the deposited data

How the results depend on the processing

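Among 475 values of the 34 called probe differences under alternative settings, 415 kept their direction and call, 57 kept their direction but were no longer called, and 3 changed sign. Of the leave-one-out fits, these values include only those with the smallest and the largest change, where 26 and 33 of 34 kept their call. They also include batch 1 alone where it had to give the same fitted difference. The 415 are therefore no rate of agreement. With ComBat 34 of 34 kept direction and call, against 28 without background correction, 26 with cyclic loess normalisation, 32 without a batch term, 31 with BeadChip as a random block, 33 without a filter, 33 without the 4 arrays with the fewest detected probes and 32 with a covariate for how many probes an array detected. The ComBat fit kept the region differences and spent no degrees of freedom on batch, so that its 34 calls are no separate support. The sign changed for Cer1 (ILMN_2775793) in the node comparison in batch 3 alone (-0.0026), for Lefty1 between late and early stages in batch 1 alone (-0.082) and for Lefty2 between those stages in batch 3 alone (0.20). Batches alone hold fewer arrays and regions, and otherwise the cause was not tested.

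Counts of called probes moved by more than 1.5 times as follows. The node count of 6 was 0 in batch 3 alone, which has 1 array on the node side and says little about it. The count of 2 for St5 and St1 was 4 in batch 1 alone. The count of 5 for NSB and P was 3 with cyclic loess normalisation. The count of 7 for late and early stages was 3 without background correction, 4 in batch 1 alone and 3 in batch 3 alone. The count of 1 for CNH and P-CNH was 0 without background correction, with cyclic loess normalisation, and in batch 2 and batch 3 alone, where 2, 2, 2 and 0 probes had an unadjusted p under 0.05 with limma. It was 2 in batch 1 alone and 2 without the 4 arrays with the fewest detected probes, with Gdf1 as the added call. The cause was not tested.

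With a replicate block, a term for the replicate number, the counts were 4, 4, 6, 1, 2, 5, 4 and 7 in the first 8 comparisons, as without it. Between late and early stages Lefty1 was then lost (0.48, adjusted p = 0.0116, under 1.5-fold) and the dimmer Nodal probe gained (-0.68, adjusted p = 1.9e-04). The count was 0 for CNH and P-CNH, where Nodal gave 0.64 (adjusted p = 0.18) and 4 of the 8 probes had an unadjusted p under 0.05 with limma. Arrays with the same replicate number had a median residual correlation of 0.0320 over 246 pairs (-0.716 to 0.738), with 79 pairs over 0.1.

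Leaving out each array in turn gave counts of 4 to 4 for A and P, 3 to 4 for PP and P, 5 to 6 for the node, 1 to 1 for RN and NSB, 1 to 2 for St5 and St1, 4 to 6 for NSB and P, 3 to 4 for E10.5 CNH and NSB, 5 to 7 for late and early stages and 0 to 1 for CNH and P-CNH. A lone array left in a region is assumed to vary like the others. Without NSB replicate 3 the node, NSB and P, and late and early comparisons could not be fitted.

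The regions hold 2 or 3 pools each, and batch 1 is linked to batches 2 and 3 through NSB replicate 3 alone. The median intensity of detected probes was 2.17 to 12.2 times that of undetected probes on the same array, which limits what dim probes such as those of Gdf3 and Tdgf1 can show. PP and P, and NSB and P, share no batch. Pools of whole pieces hold several cell types, and levels per cell were not measured. Left and right sides, protein levels and signalling activity were not analysed here.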
